A study of Macaca fascicularis with 11 samples.

Results

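DMRTB1, ACTA1 and ISOC1 are the subject here, 3 of the 19367 genes counted in single cells of cultured cynomolgus monkey embryos. They were selected on their expression levels in amnion cells at Day 14, which were lower in ISL1 mutant than in wild-type embryos, so that contrast is given below as a description and without a test. In the files they are ENSMFAG00000040855 (DMRTB1), ENSMFAG00000002280 (ACTA1) and ENSMFAG00000043883 (ISOC1). All 3 were lower in both mutant libraries than in both wild-type libraries in the amnion-like cells of that day, though for ACTA1 this held under only 1 of the 2 ways of naming cells. DMRTB1 showed the same order in Epi-like, trophoblast-like and ExE-Mech-like cells of Day 14 and so did ISOC1. These types come from the same libraries, and the share of all genes with such an order was not counted. That share was not counted for any other comparison given below as without overlap either. Neither DMRTB1 nor ISOC1 passed a false discovery rate of 1% in any of these types by edgeR with its filter on low counts. Without that filter, and with DESeq2, both passed in Epi-like cells and DMRTB1 also passed in ExE-Mech-like cells, under settings that called up to 0.538% of all genes as lower. Most of the ACTA1 counts of the series came from 51 cells.

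DMRTB1 belongs to the DMRT family of transcription factors, which bind DNA through a DM domain, and it is best known from germ cells of the testis. ACTA1 encodes the alpha-actin of skeletal muscle, the main protein of the thin filaments of the sarcomere. ISOC1 encodes a protein with an isochorismatase domain that is found in peroxisomes. The amnion is the thin epithelium that arises from the epiblast and encloses the embryo, and ISL1 is a LIM homeodomain transcription factor expressed in it.

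Embryos were thawed as blastocysts, cultured in vitro and dissociated on Day 10, Day 12 or Day 14, and the cells were captured in 11 droplet libraries in which every transcript carries a unique molecular identifier (UMI). Wild-type embryos gave 6 libraries, 2 for each day, from 12 embryos in all. Embryos labelled as ISL1 hypomorphic mutants gave 1 library at Day 10 and 2 each at Day 12 and Day 14, from 11 embryos. These had been injected as zygotes with Cas9 and guide RNAs against ISL1, and they are mosaics of cells with different edits. A library pooled between 1 and 3 embryos, and wild-type Day 12 replicate 1, mutant Day 12 replicate 2 and mutant Day 14 replicate 2 each came from 1 embryo. A p-value therefore measures the spread between pools of few embryos. The libraries hold between 36654977 and 164808415 UMIs, and the median cell of a library held between 10916 and 142180. Of the 33205 cell barcodes, 124 were found in more than 1 library. The method reads transcripts near their 3′ end and the edits lie near the start of ISL1, so the ISL1 count does not check the genotype. In the amnion-like cells of Day 14 it was 187 and 379 CPM in the wild-type libraries and 145 and 195 CPM in the mutant libraries.

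Cell types had to be rebuilt. The clustering was run without the 3 genes and without ISL1, and clusters were named from marker genes, so that types are written with the ending -like. A name was dropped where the 10 leading genes of a cluster went against it. The 3 genes and ISL1 could be among those 10. Levels are given as CPM, the UMIs of a gene for every 1000000 UMIs of the same cell type in the same library. Fewer expressing cells and less RNA per cell cannot be told apart in such sums, so shares of cells with a UMI are given for the main results. Amnion-like cells numbered 24 and 3 in the wild-type libraries of Day 14 and 230 and 49 in the mutant ones. All 20 amnion markers were detected in 3 of these 4 libraries and 19 in the library with 3 cells, and the summed level of the list was 3748 and 2382 CPM in wild type and 3101 and 3237 CPM in the mutant. An unnamed cluster of 32 cells of wild-type Day 14 replicate 2 was left out of the amnion-like cells. It held ISL1 at 131 CPM and CDX1, a caudal transcription factor, at 420 CPM. The amnion-like clusters of mutant Day 14 replicate 1 held ISL1 between 23.4 and 278 CPM. Whether the unnamed cells are amnion was not tested. The names were rebuilt here and need not match those of the study. The study describes an amnion population with higher levels of caudal genes.

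In amnion-like cells of Day 14, DMRTB1 stood at 90.6 CPM (66 UMIs) in wild-type replicate 1 and at 198 CPM (11 UMIs) in replicate 2. It stood at 4.99 CPM (8 UMIs) and 7.12 CPM (6 UMIs) in the mutant libraries. ACTA1 was at 185 CPM (135 UMIs) and 578 CPM (32 UMIs) in wild type, and at 27.5 CPM (44 UMIs) and 10.7 CPM (9 UMIs) in the mutant. The groups did not overlap for either gene. ISOC1 was at 111 CPM (81 UMIs) and 126 CPM (7 UMIs) in wild type and at 26.8 CPM (43 UMIs) and 16.6 CPM (14 UMIs) in the mutant, again without overlap. On the log2(CPM + 1) scale the mutant minus wild-type difference of the means was -4.28 for DMRTB1, -4.17 for ACTA1 and -2.43 for ISOC1. The pooled standard deviation between libraries of the same genotype was 0.60, 1.04 and 0.34, and since these differences chose the genes nothing is read from the pair of values. Wild-type replicate 2 had only 3 such cells, and without it the differences were -3.71, -3.35 and -2.34. Its unnamed cluster of 32 cells, which was left out, held DMRTB1 at 115.9 CPM and ISOC1 at 284 CPM, above both mutant values. That cluster held no ACTA1 UMI, so the ACTA1 level of this library depends on whether those cells are counted as amnion.

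Shares of cells followed the levels. A DMRTB1 UMI was found in 75.0% and 100% of the wild-type amnion-like cells and in 3.48% and 12.2% of the mutant ones, and after thinning every cell to 5000 UMIs in 31.4% and 69.6% against 1.68% and 4.76%. For ISOC1 the shares were 70.8% and 100% against 13.0% and 20.4%, and after thinning 39.8% and 51.6% against 10.9% and 6.89%. Thinning left out 121 of the 230 cells of mutant replicate 1, which held fewer UMIs. In mutant embryos of the earlier days DMRTB1 stood at 24.9 CPM (28 UMIs in 14 amnion-like cells) at Day 10 and at 17.9 CPM (6 UMIs in 24 cells) and 27.2 CPM (25 UMIs in 44 cells) at Day 12, between the mutant and the wild-type values of Day 14.

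Several other quantities differed with genotype in the same cells. The median amnion-like cell held 27976 and 16320 UMIs in the wild-type libraries and 4894.5 and 12687 in the mutant libraries. The 10 trophoblast markers together stood at 276 and 217 CPM in wild type and at 1212 and 742 CPM in the mutant, with CGA, the alpha subunit of chorionic gonadotropin, at 16.5 and 18.1 CPM against 270 and 89.1 CPM. POU5F1, a pluripotency factor of the epiblast, was at 555 and 884 CPM in wild type and at 207 and 549 CPM in the mutant. The 10 markers of ExE-Mech, the extraembryonic mesenchyme, together stood at 314 and 162 CPM in wild type, with 3 and 9 of them at 0, and at 690 and 532 CPM in the mutant, with none at 0. In 1 cluster of 22 cells of mutant replicate 1 the ExE-Mech score (0.736) was close to the amnion score (0.746). The 13 mesoderm markers stood at 357 and 577.5 CPM against 235 and 287 CPM. The part of these differences in the levels of the 3 genes was not tested.

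Some of the amnion-like clusters were led by HAND1, a transcription factor of the early extraembryonic lineages, which was among their 10 leading genes, and others were not. This split was made after the clusters had been seen. HAND1-led clusters held 21 and 3 cells in wild type and 65 and 46 in the mutant. Within them, DMRTB1 was at 80.2 and 198 CPM in wild type and at 10.5 and 6.08 CPM in the mutant. ACTA1 was at 175.5 and 578 CPM against 16.8 and 10.9 CPM. ISOC1 was at 125 and 126 CPM against 65.0 and 17.0 CPM. These cells are part of the contrast that chose the genes, and in wild type nearly all of it. The same order of the genotypes in them for all 3 genes is therefore no separate result. ISOC1 in mutant replicate 1 lay closest to wild type. The other 165 amnion-like cells of mutant replicate 1, whose leading genes included WFDC2, held ISOC1 at 10.7 CPM, ACTA1 at 32.0 CPM and DMRTB1 at 2.7 CPM. The other 3 cells of wild-type replicate 1 held ISOC1 at 46.2 CPM (6 UMIs), below the HAND1-led cells of mutant replicate 1, with ACTA1 at 231 CPM and DMRTB1 at 138.5 CPM. The other 3 cells of mutant replicate 2 held 1 DMRTB1 UMI (51.1 CPM) and no UMI of the other genes.

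The ACTA1 difference depended on how cells were named. When each cell was assigned by its own marker scores, ACTA1 stood at 114 and 53.6 CPM in wild-type amnion-like cells and at 65.6 and 84.0 CPM in mutant ones, the groups overlapped, and the difference of the means of log2(CPM + 1) was -0.07. The wild-type mean went from 8.36 to 6.31 and the mutant mean from 4.19 to 6.23. Under that naming 257 cells of mutant replicate 1 and 118 of replicate 2 came from trophoblast-like clusters, and they held 181 and 257 ACTA1 UMIs, of which 140 and 249 were in the highest cell. Another 9 cells of mutant replicate 1 came from ExE-Mech-like clusters and held 54 UMIs, 46 of them in 1 cell. In wild-type replicate 2, 21 of the 25 cells came from trophoblast-like clusters and held no ACTA1 UMI. The cells that both ways of naming called amnion-like had ACTA1 at 185 and 578 CPM in wild type and at 29.2 and 11.2 CPM in the mutant. For DMRTB1 and ISOC1 the naming by scores gave differences of -4.16 and -2.45.

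DMRTB1 was next followed outside the amnion. In wild-type embryos the mesoderm-like cells had a median of 143 CPM over 5 libraries (46.8 to 161 CPM). Epi-derived cells (those of the epiblast and its descendants) in clusters that could not be named had a median of 123 CPM over 5 (53.5 to 158 CPM), and the Epi-like cells, the epiblast cells of the embryo proper, one of 97.9 CPM over 6 (30.7 to 155 CPM). The ranges of these cell types overlapped, and the order of the medians did not hold in every library. In wild-type Day 14 replicate 1 the trophoblast-like cells (85.4 CPM) and the ExE-Mech-like cells (71.1 CPM) lay above the mesoderm-like cells (46.8 CPM), the unnamed cells (53.5 CPM) and the Epi-like cells (30.7 CPM). The ExE-Mech-like cells, an extraembryonic mesenchyme, stood between 55.8 and 79.2 CPM in 3 libraries. Endoderm-like cells had the lowest levels, between 0 and 29.6 CPM.

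**Figure D1:**
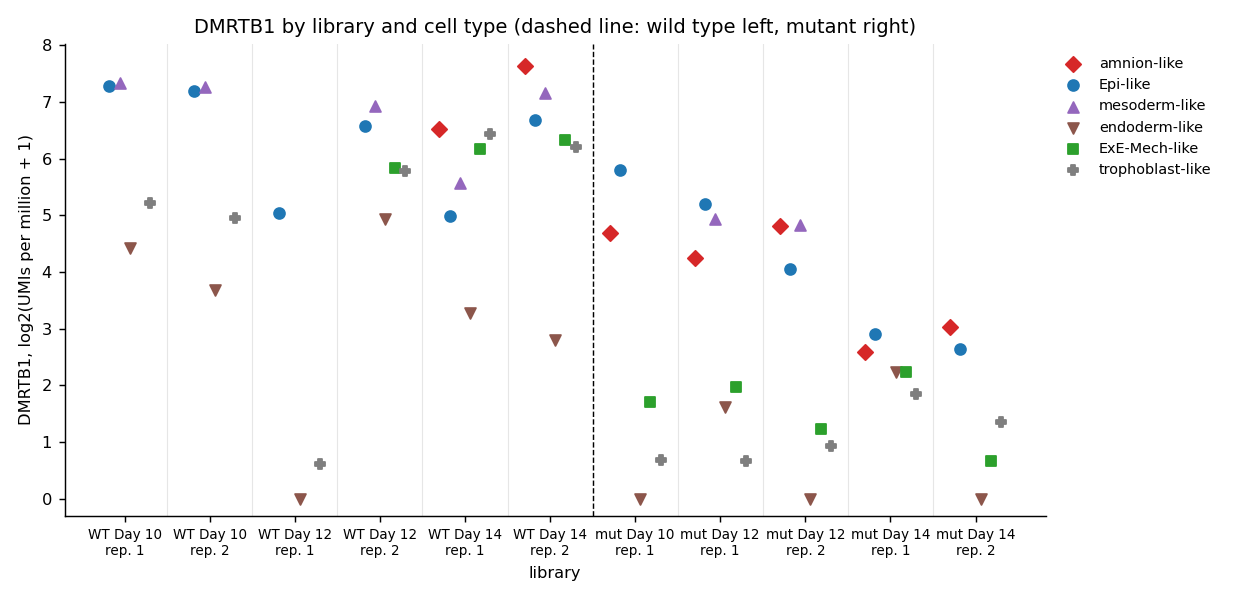
DMRTB1 as log2(CPM + 1) on the vertical axis in each of the 11 libraries, 1 point for each cell type with at least 5 cells (amnion-like cells of wild-type Day 14 replicate 2: 3 cells). The trophoblast-like points of 5 wild-type libraries lie between 30.1 and 85.4 CPM, while those of wild-type Day 12 replicate 1 and of the 5 mutant libraries lie between 0.519 and 2.58 CPM.

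The trophoblast-like cells, which form the placenta and make up most of every library, separated the libraries into a high and a low set. At Day 10, DMRTB1 was at 36.1 and 30.1 CPM in the wild-type libraries and at 0.595 CPM in the mutant library. At Day 12 it was at 0.519 CPM (22 UMIs in 295 cells) in wild-type replicate 1 and at 54.1 CPM (1518 UMIs in 616 cells) in replicate 2, against 0.591 and 0.907 CPM in the mutant. At Day 14 it was at 85.4 CPM (10859 UMIs) and 73.2 CPM (1899 UMIs) in wild type and at 2.58 CPM (214 UMIs) and 1.55 CPM (128 UMIs) in the mutant. The genotypes did not overlap at Day 10 and Day 14, and at Day 12 the wild-type library of 1 embryo lay below both mutant libraries. The labels do not give the parents of the embryos, so the genotype and the background of the few embryos in a library cannot be told apart in this split.

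In the ExE-Mech-like cells the genotypes stood apart, but wild-type Day 12 replicate 1 had none of these cells. DMRTB1 stood at 55.8 CPM in the wild-type library of Day 12 that had them, against 2.93 and 1.35 CPM in the mutant, and at 71.1 and 79.2 CPM against 3.72 and 0.587 CPM at Day 14. The 16 endoderm-like cells of wild-type Day 12 replicate 1 held no DMRTB1 UMI. Those of the other wild-type libraries stood between 5.97 and 29.6 CPM, and those of the mutant libraries between 0 and 3.73 CPM. In the Epi-like cells the genotypes were closer at the earlier days. DMRTB1 was at 155 and 146 CPM in wild type and 54.4 CPM in the mutant at Day 10, and at 31.9 and 94.7 CPM against 35.9 and 15.5 CPM at Day 12, where the groups overlapped. At Day 14 the wild-type Epi-like cells held 30.7 CPM (306 UMIs) and 101 CPM (153 UMIs), and the mutant ones 6.47 CPM (15 UMIs) and 5.20 CPM (9 UMIs), without overlap. Epi-like cells of mutant embryos thus still held DMRTB1 at Day 10 and Day 12, in the same libraries whose trophoblast-like cells were under 1 CPM.

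Shares of cells gave the same order of the genotypes. At Day 14, 79.0% and 71.0% of wild-type trophoblast-like cells had a DMRTB1 UMI, against 3.02% and 4.24% of mutant ones, with median depths of 48723 and 27585 UMIs against 11479 and 27682. After thinning every cell to 5000 UMIs, which left out 33, 19, 719 and 80 shallower cells, the shares were 33.3% and 29.2% against 1.27% and 0.696%. In the endoderm-like cells of the same wild-type libraries, with medians of 34795 and 14351 UMIs, 23.4% and 6.06% of cells had a UMI and 3.66% and 2.26% did after thinning.

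Within the trophoblast, DMRTB1 was detected in every wild-type cluster of Day 14 with at least 20 cells. Among the 11 such clusters of wild-type Day 14 replicate 1 it ranged from 18.0 to 146 CPM, and among the 6 of replicate 2 from 25.1 to 157 CPM. The lowest cluster of both libraries was led by CGA, and the highest was led by XAGE3 and PAGE4. In the mutant libraries of Day 14 it ranged from 0 to 4.54 CPM over 14 clusters and from 0.635 to 2.28 CPM over 12. All 4 libraries had at least 20 cells in 2 of the clusters. In the highest one, DMRTB1 was at 146 and 157 CPM in wild type and at 3.63 and 2.28 CPM in the mutant, and in one led by CGA and NPPB it was at 60.1 and 55.9 CPM against 3.95 and 0.729 CPM.

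Few genes divided the libraries in this way. In the trophoblast-like cells the lowest of the 5 high wild-type libraries (30.1 CPM) lay 8.69-fold above the highest of the other 6 (2.58 CPM) after adding 1 CPM to both, the widest such gap of all 19367 genes, and the second gene had 1.20-fold. The split was read off DMRTB1 itself, so this rank is a description. When the gap could fall at any place in the order of the libraries with at least 3 on either side, DMRTB1 came at rank 9. The widest gap was then 34.7-fold.

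The tests of mutant against wild type outside the amnion used edgeR on the sums per library with all libraries of a type in the fit and a false discovery rate of 1%. None of the 3 genes passed it in any type at Day 14. In Epi-like cells 8 of 10621 genes passed (0.0753%), of which 0.00942% of all genes tested were lower and 0.0659% higher in the mutant. DMRTB1 had a log2 fold change of -3.40 (standard error [SE] 0.68, adjusted p = 0.0530 by edgeR) there. In trophoblast-like cells its log2 fold change was -5.27 (SE 1.48, adjusted p = 0.208 by edgeR), in ExE-Mech-like cells -5.05 (0.75, adjusted p = 0.0848 by edgeR) and in endoderm-like cells -1.36 (1.51, adjusted p = 0.890 by edgeR). No gene passed in the trophoblast-like cells (0% of 15148), the ExE-Mech-like cells (0% of 12809) or the endoderm-like cells (0% of 9730). At an unadjusted p under 0.05 there were 2089, 2135 and 702 genes, and DESeq2 called 265, 208 and 22.

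**Figure D2:**
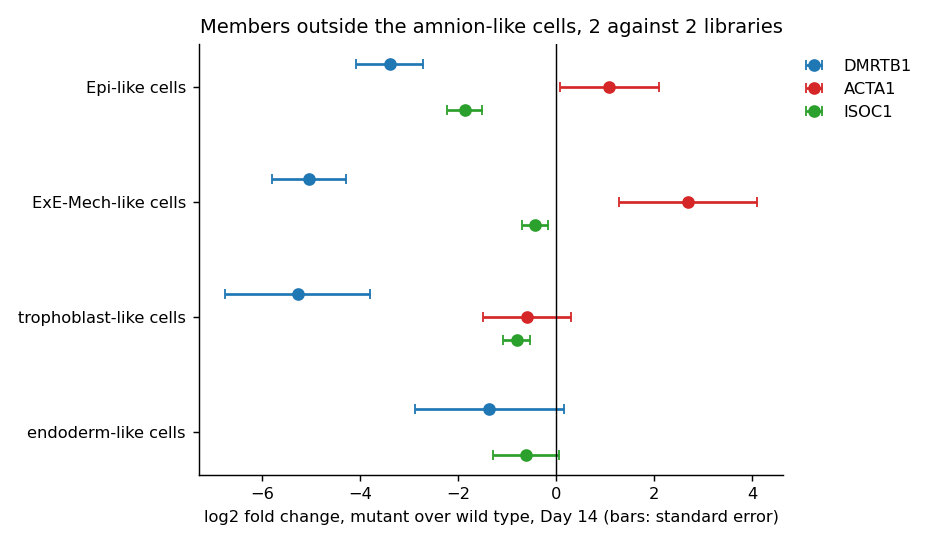
Log2 fold changes of mutant over wild type at Day 14 (2 against 2 libraries) on the horizontal axis, for DMRTB1, ACTA1 and ISOC1 in the cell types other than amnion. They come from edgeR fits with all libraries of a type, and the bars are the standard errors of those fits. For Epi-like, ExE-Mech-like, trophoblast-like and endoderm-like cells in turn, DMRTB1 lies at -3.40, -5.05, -5.27 and -1.36 and ISOC1 at -1.87, -0.44, -0.80 and -0.61, while ACTA1 lies on both sides of 0 and was not tested in endoderm-like cells.

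The result for DMRTB1 depended on the tool, on the filter on low counts and on single libraries. DESeq2 gave an adjusted p of 5.51e-06 in Epi-like and 4.06e-12 in ExE-Mech-like cells, and 0.0122 in trophoblast-like cells. Without the filter edgeR gave adjusted p-values of 1.75e-15, 0.000417 and 0.172 in the same order of types, and the count of genes that it called in Epi-like cells went from 8 to 362. The share of all genes tested that were called lower was 0.273% by DESeq2 and 0.538% without the filter in Epi-like cells, and 0.32% and 0.061% in ExE-Mech-like cells. In Epi-like cells the log2 fold change was -2.43 when wild-type replicate 2 was left out and -4.04 when wild-type replicate 1 was. In ExE-Mech-like cells it was -6.81 and -4.31 when mutant replicate 1 or 2 was left out. In endoderm-like cells it was -0.92 when wild-type replicate 1 was left out. When mutant replicate 1 was, it was -6.43, a value that depends on the small count the fit adds, since mutant replicate 2 had 0 DMRTB1 UMIs in 11 such cells. Wild-type Day 12 replicate 1 entered the fits through the spread. Without it, a choice made after its level had been seen, the edgeR adjusted p in trophoblast-like cells of Day 14 was 0.0169 at the same log2 fold change of -5.27. At Day 12, 1 of 15148 genes passed in trophoblast-like cells (0.0066%), and it was not one of the 3. DMRTB1 had a log2 fold change of -5.14 (SE 1.49, adjusted p = 0.227 by edgeR). Without wild-type Day 12 replicate 1 this was -6.13 (adjusted p = 0.00573 by edgeR, with 0.013% of all genes called lower), and without replicate 2 it was 0.39 (adjusted p = 0.709 by edgeR).

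Genotype was also exchanged between libraries of the same day, in an exact permutation test of the mean log2(CPM + 1) over all 11 libraries that was added after the levels had been seen. Of 108 arrangements, the smallest two-sided p is 0.00926. DMRTB1 gave p = 0.0278 by this exact permutation in trophoblast-like cells and p = 0.0185 in Epi-like cells, and adjusted over the 6 tests of 3 genes and 2 types both were 0.0833. ACTA1 and ISOC1 gave adjusted exact permutation p-values between 0.356 and 0.917. The 3 genes were chosen on the amnion cells of the Day 14 libraries, which are among those exchanged. These p-values are therefore not independent of that choice. The log2 fold change of DMRTB1 between mutant and wild type at Day 14 was compared between types with the library as a block. It differed by 1.91 (SE 0.88) between Epi-like and trophoblast-like cells, with an edgeR adjusted p of 0.513, and by 0.08 (0.73) between ExE-Mech-like and trophoblast-like cells, with an edgeR adjusted p of 1.

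Between Day 10 and Day 14 of wild-type development, DMRTB1 did not pass in either cell type tested with the filter on low counts. Its log2 fold change was -1.23 (SE 0.55, adjusted p = 0.264 by edgeR) in Epi-like cells, where 72 of 10621 genes passed (0.678%, with 0.386% lower and 0.292% higher at Day 14), and without the filter, where 1.55% of genes were called lower, the adjusted p was 0.0021 by edgeR. Leaving out wild-type Day 14 replicate 1 or 2 took that fold change to -0.59 or -2.22. In trophoblast-like cells it was 1.25 (SE 1.25, adjusted p = 0.575 by edgeR), where 321 of 15148 passed (2.12%, with 0.766% lower and 1.35% higher). The levels there were 36.1 and 30.1 CPM at Day 10 and 85.4 and 73.2 CPM at Day 14. They did not overlap, but the share of all genes with such an order was not counted.

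ISOC1 was highest in Epi-derived cells. In wild type the mesoderm-like cells had a median of 456 CPM over 5 libraries (156 to 582 CPM), the Epi-derived cells of unnamed clusters one of 359 CPM over 5 (281.5 to 475 CPM) and the Epi-like cells one of 179 CPM over 6 (143 to 350 CPM). These ranges overlapped, and in 3 of the 5 libraries with both the unnamed cells lay above the mesoderm-like cells, for example at 361 against 203 CPM in wild-type Day 10 replicate 2. The trophoblast-like cells lay below all Epi-like values, between 45.6 and 95.2 CPM, the ExE-Mech-like cells between 31.2 and 40.0 CPM, and the endoderm-like cells between 11.9 and 29.4 CPM. In the mutant libraries of Day 12 the mesoderm-like cells stood at 356 and 190 CPM and the transition-like cells, a state between epiblast and mesoderm, at 264 and 381 CPM, above the Epi-like cells of the same libraries at 138 and 181 CPM.

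**Figure D3:**
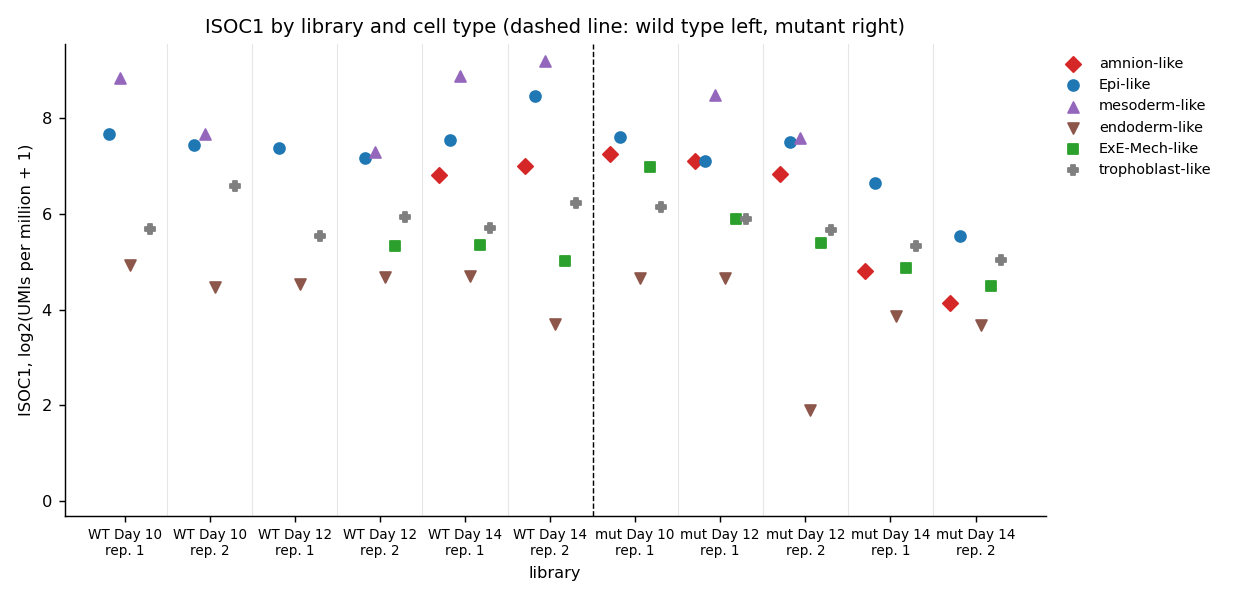
ISOC1 as log2(CPM + 1) on the vertical axis in each of the 11 libraries, 1 point for each cell type with at least 5 cells (amnion-like cells of wild-type Day 14 replicate 2: 3 cells). In the 2 mutant libraries of Day 14 the amnion-like points (26.8 and 16.6 CPM) and the Epi-like points (99.2 and 45.7 CPM) lie below the points of the same type in all other libraries.

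In the amnion-like cells of mutant embryos ISOC1 was higher at the earlier days than at Day 14. It stood at 151 CPM (170 UMIs) in the mutant library of Day 10 and at 137 CPM (46 UMIs) and 113 CPM (104 UMIs) in those of Day 12, within or above the wild-type values of Day 14. The days were not tested against each other in these cells. The Epi-like cells had the same order. Mutant Epi-like cells held 195 CPM at Day 10, against 202 and 173 CPM in wild type, and 138 and 181 CPM at Day 12, against 164 and 143 CPM. At Day 14 they held 99.2 CPM (230 UMIs) and 45.7 CPM (79 UMIs), against 185 CPM (1848 UMIs) and 350 CPM (530 UMIs) in wild type, without overlap. The log2 fold change there was -1.87 (SE 0.36, adjusted p = 0.0477 by edgeR), which did not reach 1%, and DESeq2 gave -1.85 with an adjusted p of 8.48e-05. Without the filter on low counts edgeR gave -1.91 with an adjusted p of 2.02e-07. These settings called 0.273% and 0.538% of all genes as lower. The fold change was -1.41 when wild-type replicate 2 was left out and -2.42 when mutant replicate 1 was. The Epi-like cells of wild-type replicate 2 were mixed. A cluster of 30 with CDX2 among its leading genes held ISOC1 at 459 CPM, and one of 29 held it at 255 CPM. The 13 mesoderm markers of Epi-like cells stood at 379.5 and 936 CPM in wild type and at 621 and 475 CPM in the mutant. Their part in the ISOC1 difference was not tested.

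The fold changes of ISOC1 at Day 14 were smaller in the trophoblast-like and ExE-Mech-like cells. The difference from the Epi-like cells did not pass for the former and was not tested for the latter. ISOC1 was at 51.5 and 74.2 CPM in wild-type and at 39.0 and 31.9 CPM in mutant trophoblast-like cells of Day 14 (log2 fold change -0.80, SE 0.28, adjusted p = 0.270 by edgeR). The level varied widely between clusters of the trophoblast. ISOC1 ranged from 5.43 to 95.5 CPM over the clusters of wild-type replicate 1 and from 4.96 to 94.0 CPM over those of mutant replicate 1. In the XAGE3 and PAGE4 cluster shared by all 4 libraries it was at 91.7 and 131 CPM in wild type and at 94.0 and 74.7 CPM in the mutant, where the groups overlapped. In the shared CGA and NPPB cluster it was at 43.6 and 30.6 CPM against 9.87 and 23.0 CPM, without overlap (share of all genes not counted). In the ExE-Mech-like cells it was at 40.0 and 31.2 CPM against 28.4 and 21.7 CPM (log2 fold change -0.44, SE 0.26, adjusted p = 0.426 by edgeR), and in endoderm-like cells the log2 fold change was -0.61 (0.67, adjusted p = 0.890 by edgeR). The latter turned to 0.16 with naming by scores and to 0.21 when wild-type replicate 1 was left out.

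The log2 fold change of ISOC1 at Day 14 in Epi-like minus that in trophoblast-like cells was -1.08 (SE 0.42), a difference that did not pass (adjusted p = 0.461 by edgeR). At Day 12 the trophoblast-like cells gave a log2 fold change of -0.02 (SE 0.27, adjusted p = 0.987 by edgeR). Between Day 10 and Day 14 of wild-type embryos it was 0.52 (0.34, adjusted p = 0.460 by edgeR) in Epi-like and -0.23 (0.27, adjusted p = 0.656 by edgeR) in trophoblast-like cells. The latter turned to 0.25 when wild-type Day 10 replicate 2 was left out, and the Day 12 value to 0.10 or 0.06 when replicate 2 of wild type or mutant was. Mutant Day 14 libraries had no mesoderm-like cluster, so this type could not be compared under the main naming.

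ACTA1 was a gene of few cells. Of 33330 cells, 724 (2.17%) had an ACTA1 UMI, and 51 cells with at least 10 UMIs held 74.5% of the 4704 UMIs of the series. The highest cell alone held 774 UMIs (16.5%). For comparison, the 10 highest cells held 49.9% of the UMIs of ACTA1, 1.53% of those of DMRTB1 and 1.19% of those of ISOC1.

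**Figure D4:**
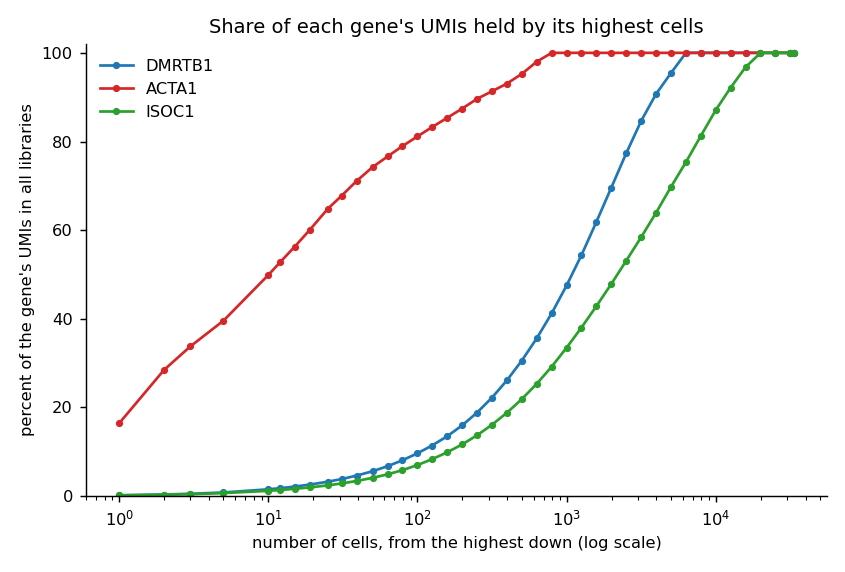
Percent of all UMIs of DMRTB1, ACTA1 and ISOC1 over the 11 libraries (vertical axis) held by a number of cells counted from the highest down (horizontal axis, log scale). The 100 highest cells hold 81.2% of ACTA1, 9.66% of DMRTB1 and 7.00% of ISOC1.

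The amnion-like cells had the highest ACTA1 level in every library with at least 5 of them when all cells were counted. At the earlier days of mutant development they held 39.1 CPM (44 UMIs) at Day 10, and 95.5 CPM (32 UMIs) and 16.3 CPM (15 UMIs) at Day 12. The highest cell held 33, 20 and 3 of these UMIs, and without it the levels were 10.8, 37.2 and 13.6 CPM. In the Epi-like cells ACTA1 stayed between 0 and 17.7 CPM over all libraries, and in wild type at most at 5.81 CPM. Mesoderm-like cells held at most 5.97 CPM in wild type, and 66.3 CPM (27 UMIs) in mutant Day 12 replicate 1. In that library the mesoderm-like cells lay above the amnion-like cells once the highest cell of each was left out, at 53.2 against 37.2 CPM. Endoderm-like cells had 1 ACTA1 UMI in wild-type Day 14 replicate 1 and 1 in mutant Day 12 replicate 2 and none in the other 9 libraries.

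**Figure D5:**
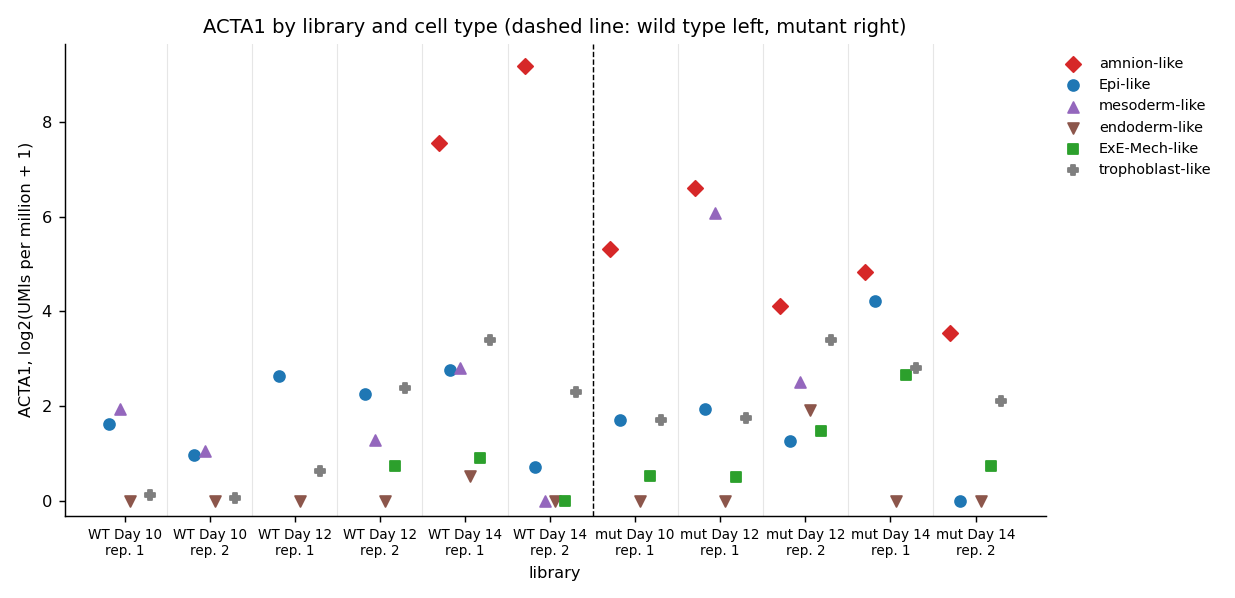
ACTA1 as log2(CPM + 1) on the vertical axis in each of the 11 libraries, 1 point for each cell type with at least 5 cells (amnion-like cells of wild-type Day 14 replicate 2: 3 cells). The amnion-like points are the highest of their library, at 185 and 578 CPM in the wild-type libraries of Day 14 and between 10.7 and 95.5 CPM in the mutant libraries.

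Part of the amnion value came from single cells too. An ACTA1 UMI was found in 12 of 24 cells (exact 95% interval 29.1 to 70.9%) of wild-type Day 14 replicate 1 and in 2 of 3 cells of replicate 2, against 12 of 230 (5.22%, 2.72 to 8.94%) and 6 of 49 (12.2%, 4.63 to 24.8%) in the mutant. These intervals cover counting error only. After thinning to 5000 UMIs the shares were 32.8% and 45.0% in wild type and 6.46% and 4.45% in the mutant, with 121 of the 230 cells of mutant replicate 1 too shallow to enter. The highest cell held 52 of 135 and 31 of 32 UMIs in wild type, and 22 of 44 and 2 of 9 in the mutant. Without that cell in each library, a choice made after the cells had been seen, ACTA1 stood at 120 and 32.7 CPM in wild type and at 13.8 and 8.44 CPM in the mutant. In wild-type replicate 2, where that cell held 31 of the 32 UMIs, too little is left to place the value against the mutant. The unnamed cluster of 32 cells left out of the amnion-like cells of that library added no ACTA1 UMI. Trophoblast-like cells of the same 4 libraries had an ACTA1 UMI in 2.16, 1.01, 1.73 and 0.443% of cells.

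In trophoblast-like cells ACTA1 was held by a few cells of high content. At Day 14 its level was 9.55 and 3.97 CPM in wild type and 5.997 and 3.34 CPM in the mutant, with overlap. The highest cell held 774 of 1215, 47 of 103, 140 of 497 and 249 of 276 UMIs in these libraries. The log2 fold change was -0.59 (SE 0.90, adjusted p = 0.802 by edgeR), and it was 0.33 without wild-type replicate 1. At Day 12 it was 1.37 (0.92, adjusted p = 0.524 by edgeR), and its sign turned with naming by scores (-2.84) and when mutant Day 12 replicate 2 was left out (-0.0077). The highest ACTA1 level was in 1 of the clusters with LAIR2 and ISM2 among their leading genes, at 547 CPM in 20 cells of wild-type replicate 1 and at 89.3 and 51.2 CPM in 247 and 112 cells of the mutant libraries. An ACTA1 UMI was found in 8 of the 20 cells and in 23 of 247 and 5 of 112, the highest cell held 774 of 1008, 140 of 355 and 249 of 265 UMIs, and without that cell the levels were 135, 54.4 and 3.16 CPM. Wild-type replicate 2 had under 20 cells in that cluster, and none of its 6 clusters with at least 20 went above 0.263 CPM.

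Trophoblast-like cells with at least 10 ACTA1 UMIs numbered 11 in wild type, from 3 libraries, and 24 in the mutant, from 5. Beside ACTA1, 8 actin, actin-binding, contractile and other muscle genes were looked at without a test. Of these, 7 were higher in the wild-type cells of this kind than in wild-type trophoblast-like cells with no ACTA1 UMI. In the mutant 6 were. Both sets were pooled over libraries, days and clusters, which these values do not separate. The share of all genes that were higher in such cells was not counted. ACTC1, the cardiac actin, was at 0 CPM in the high cells of both genotypes, against 1.55 and 0.262 CPM, and TNNT1, a troponin, was at 2.09 against 5.17 CPM in the mutant. TAGLN, the smooth muscle protein transgelin, was at 5913 CPM in the 11 wild-type cells and at 148 CPM in those with no ACTA1 UMI. TPM1, a tropomyosin, was at 6589 against 1029 CPM, MYL9, a myosin light chain, at 978 against 68.2 CPM, and ANKRD1, a stress-responsive muscle protein, at 523 against 12.1 CPM. The mutant cells had the same order for these 4, with TAGLN at 9196 against 215 CPM. ANKRD1 was also among the amnion markers used for the names. KRT18, a keratin looked at beside the 8, was higher too, at 3250 against 2897 CPM in wild type and 6296 against 1560 CPM in the mutant. CGA was lower, at 4305 against 6719 CPM and 2653 against 6913 CPM. The cells were also deeper, with medians of 71058 against 47654 UMIs in wild type and 28380.5 against 17740 in the mutant, and CPM scales by the summed depth. Such cells were fewer among amnion-like cells but a larger share of them. Over all libraries they were 8 of 391 amnion-like cells (2.05%) and 35 of 23359 trophoblast-like cells (0.150%). Of the 8 genes 4 were higher and 4 lower in the 5 wild-type cells with at least 10 ACTA1 UMIs than in the 16 without any, with TAGLN at 710 against 254 CPM, ANKRD1 at 251 against 247 CPM and TPM1 at 2369 against 2565 CPM. In the 3 mutant cells of this kind 5 of the 8 were higher than in the 321 without any, with TAGLN at 869 against 244 CPM, while ANKRD1 was at 0 against 52.7 CPM.

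Day 10 trophoblast-like cells of wild-type embryos had almost no ACTA1, with 3 and 2 UMIs (0.0925 and 0.0464 CPM). Day 14 against Day 10 gave a log2 fold change of 6.65 (SE 1.30, adjusted p = 0.0166 by edgeR), short of 1%, while DESeq2 gave an adjusted p of 4.94e-08 and edgeR without the filter on low counts one of 0.00695, with 7.92% and 2.31% of all genes called higher. The clusters of the trophoblast-like cells differed between these days. LAIR2, among the leading genes of the cluster with 1008 of the 1215 ACTA1 UMIs of Day 14 replicate 1, was at most at 1.96 CPM in the Day 10 wild-type clusters with at least 20 cells and reached 6404 CPM in those of Day 14. Its part in the ACTA1 difference was not tested. In the same comparison 2 of the 6 tested contractile and actin-binding genes rose and none fell, where 1.35% of all 15148 genes rose and 0.766% fell. They were TAGLN with a log2 fold change of 4.47 (SE 0.56, adjusted p = 0.00432 by edgeR) and TPM1 with 1.75 (0.28, adjusted p = 0.00917 by edgeR). The median of the 6 was 1.76, and that of all genes tested was 0.04. The 6 are those of the list that the study's own tables name, so they are preselected from these data. Markers of other types were summed in the same cells. The 10 ExE-Mech markers had a median of 5.42, with 1 called higher, and their sum was 8.76 and 11.6 CPM at Day 10 and 21.5 and 110.4 CPM at Day 14. The 10 Epi-derived markers had a median of -2.41, with 1 called lower. Their part in the rise of TAGLN and TPM1 was not tested. These calls rest on few libraries: leaving out replicate 1 or 2 of wild-type Day 10 took the edgeR count of called genes from 321 to 15 or 0, and leaving out replicate 1 or 2 of Day 14 took it to 107 or 605. The 2 actins with a symbol, ACTB and ACTC1, did not pass. In the mutant library of Day 10 the trophoblast-like cells held 130 ACTA1 UMIs, of which 119 were in 1 cell.

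ACTA1 in the Epi-like cells of Day 14 had a log2 fold change of 1.09 (SE 1.02, adjusted p = 0.641 by edgeR), from 58 and 1 UMIs in wild type and 41 and 0 in the mutant. Its sign turned, to -7.88, when mutant replicate 1 was left out. In ExE-Mech-like cells it was 2.69 (1.41, adjusted p = 0.376 by edgeR), from 8 and 0 UMIs against 153 and 15. Leaving out mutant replicate 1 or wild-type replicate 1 took the latter to 0.67 or 8.72. These fitted values rest on libraries at 0 and depend on the small count that the fit adds. In endoderm-like cells ACTA1 did not pass the filter on low counts, so 2 of the 3 genes were tested there.

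The genes around the 3 were looked at through lists. Only 1020 of the 19367 genes had a symbol here, taken from the study's supplementary tables. Those tables list markers, differing genes and regulons of these same cells, so the list genes that could be matched are preselected. Of the 6 DMRT family genes and the 13 peroxisome and isochorismatase genes listed none could be matched. Of the other lists, 5 of 10 early germ cell genes, 2 of 5 actins, 6 of 24 contractile and actin-binding genes and 13 of 13 amnion signals could. In the 5 comparisons of mutant against wild type none of their members passed, where 0 to 0.0753% of all genes did. SOX17, a germ cell and endoderm factor, had the smallest adjusted p of these lists in Epi-like cells of Day 14, at a log2 fold change of 5.43 (SE 1.10, adjusted p = 0.0534 by edgeR), and it was chosen after its value was seen. Their medians in Epi-like cells of Day 14 were 0.98, -0.49, 1.55 and 0.37, against -0.01 over all genes tested. Markers of other cell types had medians of 2.82 (ExE-Mech), 1.61 (endoderm), 1.37 (trophoblast) and 1.26 (amnion) there, and none of them passed. The summed trophoblast markers of these Epi-like cells were at 166 and 82.6 CPM in wild type and 442 and 294 CPM in the mutant, with none of the 10 at 0. The endoderm markers were at 17.9 and 26.4 CPM against 89.3 and 50.9 CPM, and the ExE-Mech markers at 27.4 and 42.9 CPM against 200.2 and 27.8 CPM, where mutant replicate 1 stood apart. Their part in the Epi-like results was not tested. Between Day 10 and Day 14 of wild-type Epi-like cells 1 of 4 tested germ cell genes fell, where 0.386% of all genes tested fell. It was DPPA3, a maternal and germ cell factor, with a log2 fold change of -4.61 (SE 0.68, adjusted p = 0.00679 by edgeR). The edgeR count of 72 called genes in that comparison became 32 or 8 when replicate 1 or 2 of Day 10 was left out, and 13 or 83 when replicate 1 or 2 of Day 14 was.

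The genes whose levels most resembled those of the 3 were ranked by Pearson's r of log2(CPM + 1) over the 56 sums of library and type with at least 20 cells, among 911 genes with a symbol. Sums of 1 library share its depth and its embryos. For DMRTB1 the nearest were DENR (0.74), NASP (0.73), GINS2 (0.73), HMGB1 (0.71) and PTMA (0.71). For ISOC1 they were DUT (0.88), NASP (0.88), ANP32E (0.87), HMCES (0.86) and LMNB1 (0.86). For ACTA1 they were CLDN10 (0.66), GABRP (0.64), WNT6 (0.64), SPNS2 (0.63) and LYPD1 (0.63), of which GABRP, WNT6, SPNS2 and LYPD1 were among the amnion markers used for the names. DMRTB1 and ISOC1 had r = 0.66 with each other, ACTA1 had 0.28 with ISOC1 and 0.13 with DMRTB1.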

How the data were processed

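Cells of 11 libraries were analysed. The authors made 10x v3 libraries, counted UMIs with Cell Ranger 3.1.0 against Ensembl Macaca_fascicularis_5.0, kept genes seen in at least 3 cells and cells under 7.5% mitochondrial UMIs, and removed free RNA with SoupX. The deposited corrected values are expected counts, whole numbers without scaling, and the deposited uncorrected values are counts. The uncorrected matrix holds 209 cells more, which were left out. Per library the correction took away 0.196 to 8.77% of UMIs.

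Symbols came from the study's supplementary tables and covered 1020 of the 19367 genes. Cells of each day were clustered by k-means (25 clusters, 30 principal components of 2000 genes, scikit-learn 1.9.0), and Epi-derived cells again within each library. A name needed 3 markers in 25% of cells. The naming rule was rewritten after clusters had been seen. None of the 3 genes was a marker, but names were dropped by the 10 leading genes of a cluster. The 3 genes and ISL1 were not left out of those. ACTA1 was among them in the 3 amnion-like cells of wild-type Day 14 replicate 2. No doublet caller was run. Sums per library with at least 5 cells were tested with edgeR 4.0.16 (TMM scaling, filterByExpr, the two-sided quasi-likelihood test with Benjamini-Hochberg adjustment at a false discovery rate of 1%, all days and genotypes in 1 fit) and as an alternative with DESeq2 1.42.0. The scripts were tested on simulated data. Standard errors were taken from the fold change and its F value. Named genes were the 3 genes, ISL1, POU5F1, CGA, marker and list genes that passed or had the highest levels, and the 5 most similar genes. HAND1, SOX17 and the genes leading clusters were named after their values were seen. The genes and lists were chosen with earlier results of these data known.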

Additional observations from a re-analysis of the deposited data

How the results depend on the processing

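With 2 libraries a group and few embryos in each, 43 counts of called genes moved under an alternative and 46 did not. A count moved if it changed by over 1.5 times, or from 0 to any other number. Main values and alternatives follow for genes passing 1%. For mutant against wild type at Day 14 in Epi-like cells (8), DESeq2 gave 135, no filter on low counts 362, only the libraries of both groups 14, naming by scores 0, and a minimum of 20 cells or, added after seeing the data, a fit without wild-type Day 12 replicate 1 gave 15. In trophoblast-like cells (0), DESeq2 gave 265 and no filter 1. In ExE-Mech-like cells (0), DESeq2 gave 208, no filter 122 and only the libraries of both groups 1. In endoderm-like cells (0), DESeq2 gave 22 and no filter 127. At Day 12 in trophoblast-like cells (1), DESeq2 gave 292 and only the libraries of both groups 0. For Day 14 against Day 10 in wild-type Epi-like cells (72), DESeq2 gave 285, no filter 696, only the libraries of both groups 1, naming by scores 30, and a minimum of 20 cells or the fit without wild-type Day 12 replicate 1 gave 112. In trophoblast-like cells (321), DESeq2 gave 1966, no filter 690 and only the libraries of both groups 5. The cause was not tested.

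Labels give wild-type and mutant libraries batch numbers 1 and 2, but nothing says that a number marks a shared day. Same-numbered libraries of 2 groups of 2 correlated in their deviations by between -0.01 and 0.13. With the replicate block, the pairing by number, 13 genes passed in Epi-like and 3 in endoderm-like cells of Day 14 and 179 in wild-type trophoblast-like cells of Day 14 against Day 10, and no call of the 3 genes changed.

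Leaving out 1 library at a time gave 1 to 8 genes in Epi-like (1 without wild-type replicate 2, 2 without mutant replicate 2, 4 without wild-type replicate 1), 0 to 1 in trophoblast-like, 0 to 0 in ExE-Mech-like and 0 to 2 in endoderm-like cells of Day 14, 0 to 2 at Day 12, 8 to 83 for wild-type Epi-like cells and 0 to 605 for wild-type trophoblast-like cells (0 without Day 10 replicate 2, 605 without Day 14 replicate 2). The log2 fold change of ACTA1 ranged from -7.88 to 3.78 in Epi-like and -1.13 to 0.33 in trophoblast-like cells of Day 14, from -0.0077 to 3.27 at Day 12 and from -1.08 to 2.16 in wild-type Epi-like cells. For ISOC1 it ranged from -0.95 to 0.21 in endoderm-like cells, from -0.12 to 0.10 at Day 12 and from -0.58 to 0.25 in wild-type trophoblast-like cells, and for DMRTB1 at Day 12 from -6.13 to 0.39. A lone library was then assumed to vary like the other groups. Naming by scores turned ISOC1 in endoderm-like cells to 0.16 and ACTA1 at Day 12 to -2.84, and took the ACTA1 difference in amnion-like cells to -0.074. No fold change that turned had passed the threshold. Without 1 library the amnion-like differences ranged from -4.84 to -3.71 for DMRTB1, -4.99 to -3.35 for ACTA1 and -2.76 to -2.10 for ISOC1. Mesoderm-like cells of Day 14 had no mutant cluster, and with naming by scores edgeR called 0 of 9739 genes there.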

Other observations

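Among the Epi-derived cells of wild-type Day 14 some clusters had too many markers of another list among their leading genes to be named. A cluster of 107 cells in replicate 1, led by KHDC3L, DPPA5 and POU5F1 with MIXL1, a transcription factor of the primitive streak, held ISOC1 at 448 CPM, DMRTB1 at 40.7 CPM and ACTA1 at 27.7 CPM. A cluster of 35 cells in the same library, led by CLDN10, FABP7 and CDX1, a caudal transcription factor, held ISOC1 at 607 CPM, DMRTB1 at 89.4 CPM and ACTA1 at 37.5 CPM, with ISL1 at 32.9 CPM. A cluster of 32 cells in replicate 2, led by CDX1, CDX2 and HAND1, held ISOC1 at 284 CPM and DMRTB1 at 115.9 CPM with ISL1 at 131 CPM, and no ACTA1 UMI. The ISOC1 levels of all 3 clusters lay above those of the amnion-like cells of both libraries.

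The wild-type amnion-like cells of Day 10 were 3 cells of replicate 1, with DMRTB1 at 279 CPM (30 UMIs), ISOC1 at 242 CPM (26 UMIs) and no ACTA1 UMI. The mutant mesoderm-like cells of Day 10 were 4 cells, with DMRTB1 at 13.2 CPM (6 UMIs) and ISOC1 at 386 CPM (175 UMIs).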
